A study of Homo sapiens with 6 samples.

Results

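Small Cajal body RNAs (scaRNAs) are short non-coding RNAs that guide the chemical modification of the spliceosomal small nuclear RNAs in Cajal bodies, compartments of the nucleus. Genes whose symbol starts with SNORA, SNORD or SCARNA were sought among the named features of the array, leaving out the series from SNORD113 to SNORD116. The array annotation used here gave 23 members, all of them SCARNA genes, among 14884 named genes. It gave 0 features named as C/D box snoRNAs (SNORD) and 0 named as H/ACA box snoRNAs (SNORA), so those RNAs of the nucleolus were not analysed here and the results concern the Cajal body RNAs.

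The arrays measured total RNA of MOLM14, a human acute myeloid leukaemia cell line, in 2 groups of 3. One group had received siATF4, a commercial siRNA against ATF4, the transcription factor of the integrated stress response. The other had received siCTRL, a non-targeting pool, and both siRNAs were electroporated at 70 nM into cells grown in medium with serum. The labels call the 3 arrays of a group technical replicates and number them 1 to 3, so p-values measure the spread among these samples alone, part of which may be technical.

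ScaRNAs carry the same boxes and core proteins as the snoRNAs of the nucleolus. Those with C and D boxes bind fibrillarin and direct methylation of the ribose, those with H and ACA boxes bind dyskerin and direct the conversion of uridine to pseudouridine, and mixed ones hold both kinds of domain. Most are cut from introns of longer genes after splicing, and a few have promoters of their own. A probe set that lies in such an RNA can also bind its unspliced host transcript, so its value may be for both together. By textbook knowledge 5 members are of the C/D kind, 4 are mixed and 13 are of the H/ACA kind, and SCARNA27 was not assigned. In the RefSeq gene table of GRCh38.p14 the C/D members are 330 to 421 nucleotides long, the mixed ones 266 to 330 and the H/ACA ones 125 to 187. The sequences of these RNAs are not shown.

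Values are log2 levels, and differences are siATF4 minus siCTRL on that scale. ATF4 mRNA read 7.72, 7.88 and 8.14 on siATF4 arrays, against 8.67, 8.64 and 8.85 on siCTRL arrays. Every siATF4 array was below every siCTRL array, with a difference of -0.80 (SE 0.14), which leaves 57.4% of the siCTRL level (adjusted p = 1.00 in limma, exact permutation p = 0.1). Array medians over all features lay between 3.88 and 3.96. The myeloid markers LYZ, MPO, FLT3, SPI1, CSF1R and MEIS1 lay above the median feature on every array, while the monocyte antigen CD14 averaged 3.54 ± 0.13 with siATF4 and 3.69 ± 0.48 with siCTRL (SD, n = 3 each), near that median. KLF1, an erythroid marker, averaged 3.70 ± 0.15 with siATF4 and 3.71 ± 0.14 with siCTRL (SD, n = 3 each). The T cell markers CD2 and CD8A averaged 4.01 and 4.10 with siATF4 and 4.13 and 4.13 with siCTRL. Both were also above the median feature on every array, so that bar alone does not set the myeloid markers apart. The B cell marker PAX5 stood at 3.76, 6.05 and 5.28 on siATF4 arrays and at 6.12, 5.70 and 5.43 on siCTRL arrays. PAX5 was thus above the median feature on every array but siATF4 replicate 1, with a difference of -0.72 (SE 0.55).

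No scaRNA passed the test between siATF4 and siCTRL arrays. Of 23 members 12 (52.2%) had a lower mean and 11 a higher mean with siATF4, where 46.2% of all genes had a lower mean. None (0 of 23) reached an adjusted p below 0.05 in limma, where the share of all genes called was 0%. At an unadjusted p below 0.05 there were 0 members, against 1.46% of all genes. The lowest unadjusted p of a member was 0.139, for SCARNA14. With the replicate number as a block there were again 0 members below that unadjusted level, against 3.12% of all genes. The median difference over the members was -0.0011, beside 0.012 over all genes.

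The median member varied more between arrays than the median gene did, in a comparison not matched by level. The median SE of a member's difference was 0.27, beside 0.15 over all genes, and single members ran from 0.11 to 0.55. The 95% confidence interval of the difference lay within 1 log2 of 0, that is within a 2-fold change either way, for 16 of 23 members (69.6%), beside 92% of all genes. For the other 7, SCARNA4, SCARNA5, SCARNA6, SCARNA17, SCARNA18, SCARNA21 and SCARNA23, these arrays could not exclude a change of that size. For 22 of 23 members the difference was smaller than the SD of the more variable group. The exception was SCARNA14. The share of all genes was not computed for this count, so it says nothing particular about the scaRNAs.

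**Figure D1:**
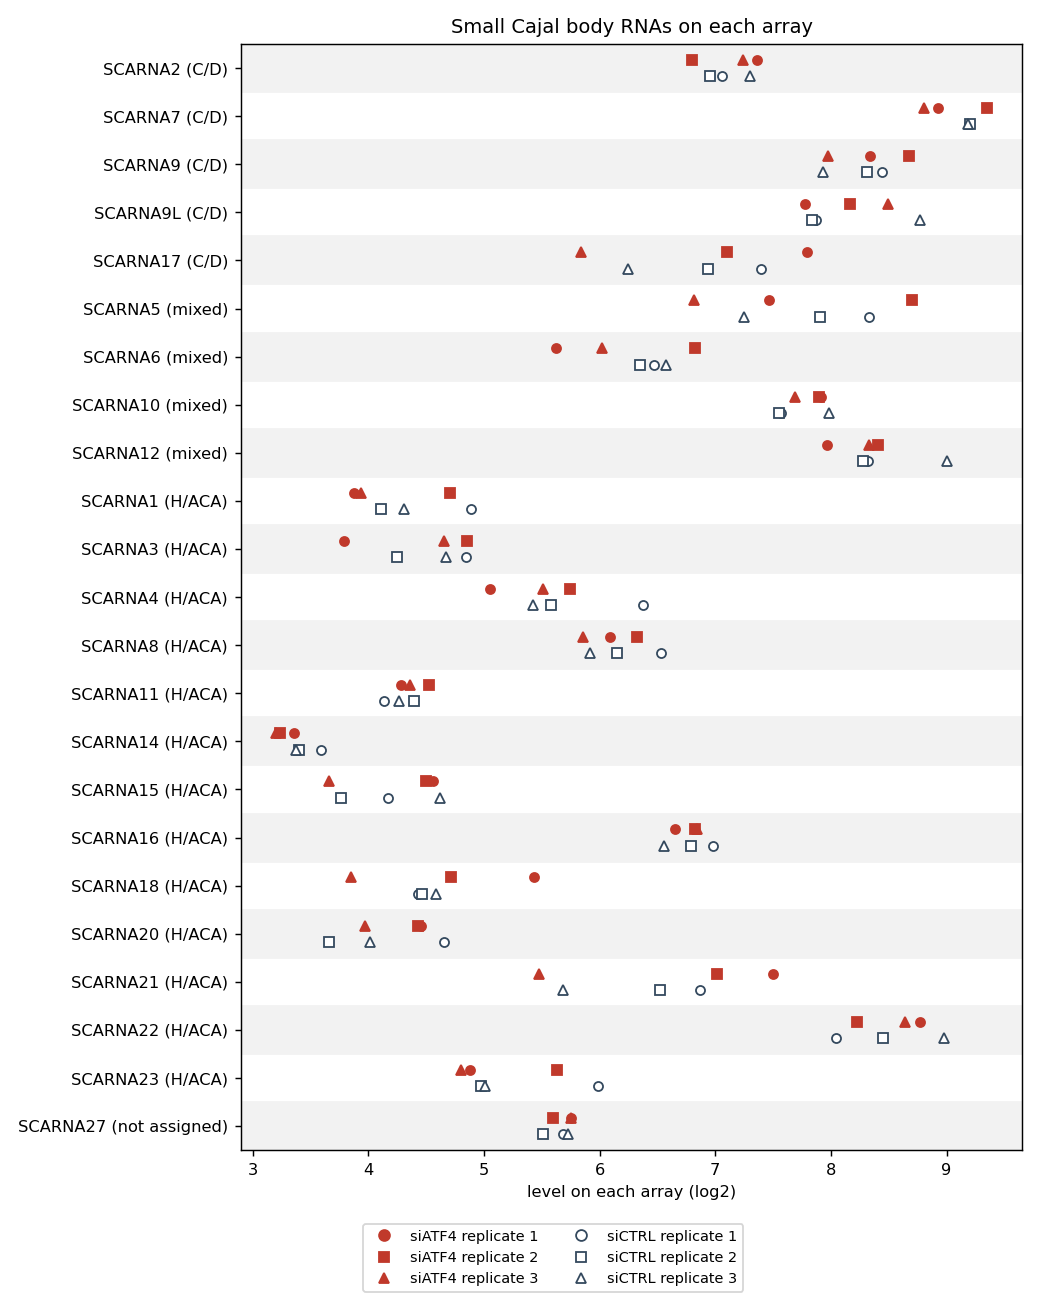
Log2 level of each of the 23 members (rows, with box class) on each array. Filled red symbols are siATF4 arrays and open dark symbols siCTRL arrays, with circles, squares and triangles for replicates 1, 2 and 3. SCARNA14 is the 1 member whose groups do not overlap, and SCARNA17 and SCARNA21 have the triangles of both groups at the low end.

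**Figure D2:**
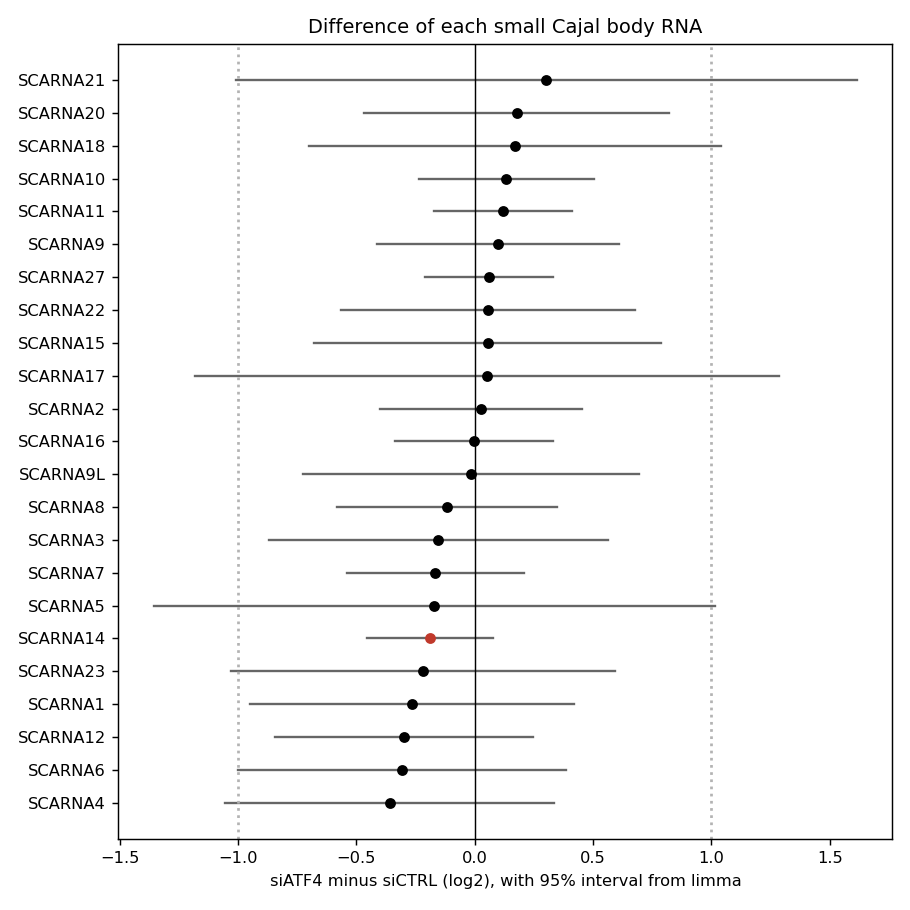
Difference, siATF4 minus siCTRL in log2, of each member with its 95% confidence interval from limma. Dotted lines mark 1 log2 either way. Every interval includes 0, and 7 of 23 reach past a dotted line. SCARNA14 is drawn in red.

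Among the C/D members no difference exceeded 0.17 in size. SCARNA7, known as U90 and a guide for the U1 small nuclear RNA, read 8.92, 9.35 and 8.81 on siATF4 arrays, against 9.19, 9.20 and 9.19 on siCTRL arrays. The siCTRL arrays were almost level and the siATF4 arrays lay on both sides of them. Its difference was -0.17 (SE 0.16, 95% interval -0.54 to 0.21). SCARNA2, which guides methylation of U2 and has its own promoter, stood at 7.36, 6.80 and 7.24 on siATF4 arrays and at 7.06, 6.95 and 7.30 on siCTRL arrays. Its difference was 0.027 (SE 0.18, 95% interval -0.40 to 0.45), and replicate 2 was the lowest array of both groups.

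SCARNA9, also a guide for U2, stood at 8.34, 8.67 and 7.97 on siATF4 arrays and at 8.44, 8.32 and 7.93 on siCTRL arrays, a difference of 0.099 (SE 0.22). SCARNA9L, a separate gene named as a copy of SCARNA9, stood at 7.77, 8.16 and 8.50 on siATF4 arrays and at 7.87, 7.84 and 8.77 on siCTRL arrays, a difference of -0.014 (SE 0.30). The pair ran opposite ways at replicate 3, where SCARNA9 was at its lowest and SCARNA9L at its highest in both groups. RNA from one copy may bind the probes of the other, so the 2 values are uncertain as separate genes. SCARNA17, known as U91 and a guide for U4 and U12, stood at 7.79, 7.10 and 5.84 on siATF4 arrays and at 7.40, 6.94 and 6.25 on siCTRL arrays. The siATF4 arrays reached past the siCTRL arrays at both ends, and the difference was 0.051 (SE 0.52, 95% interval -1.18 to 1.29).

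Of the 4 mixed members 3 had a lower mean with siATF4, none past the test. SCARNA6 (U88) stood at 5.62, 6.82 and 6.02 on siATF4 arrays and at 6.47, 6.35 and 6.58 on siCTRL arrays, a difference of -0.31 (SE 0.29, 95% interval -1.0 to 0.39). Replicates 1 and 3 lay below every siCTRL array and replicate 2 above them, and without siATF4 replicate 1 the difference was -0.040. SCARNA12 (U89) stood at 7.97, 8.41 and 8.33 on siATF4 arrays and at 8.32, 8.27 and 9.01 on siCTRL arrays, a difference of -0.30 (SE 0.23, 95% interval -0.84 to 0.25). Its highest array was siCTRL replicate 3, without which the difference was -0.062.

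SCARNA5 (U87) stood at 7.46, 8.70 and 6.82 on siATF4 arrays and at 8.33, 7.91 and 7.25 on siCTRL arrays, a difference of -0.17 (SE 0.50, 95% interval -1.36 to 1.01). The siATF4 arrays lay at both ends of its range of 1.88. SCARNA10 (U85), which guides both kinds of modification on the U5 small nuclear RNA, was the mixed member with a higher mean. It stood at 7.92, 7.90 and 7.69 on siATF4 arrays and at 7.57, 7.55 and 7.99 on siCTRL arrays, a difference of 0.13 (SE 0.16, 95% interval -0.24 to 0.50). The siATF4 arrays lay above siCTRL replicates 1 and 2, while siCTRL replicate 3 was the highest of the 6.

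Of the 13 H/ACA members 7 had a lower mean with siATF4 and 6 a higher one. SCARNA14, known as U100, was the 1 member of 23 (4.35%) whose groups did not overlap, with siATF4 below. Of all genes 5.89% had no overlap, 2.59% with siATF4 below. It stood at 3.35, 3.24 and 3.20 on siATF4 arrays and at 3.59, 3.40 and 3.37 on siCTRL arrays, a difference of -0.19 (SE 0.11, 95% interval -0.45 to 0.079). An exact permutation test (two-sided) gave p = 0.1, the lowest value possible with 3 arrays in each group, and the groups were only 0.018 apart at their nearest arrays. SCARNA14 was also the 1 member that lay under the median feature on all 6 arrays, so its signal over background is uncertain. With quantile normalization or with equal array medians its groups overlapped.

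The lowest and highest differences both belonged to H/ACA members. SCARNA4, known as ACA26, stood at 5.05, 5.75 and 5.51 on siATF4 arrays and at 6.38, 5.58 and 5.42 on siCTRL arrays, a difference of -0.36 (SE 0.29, 95% interval -1.05 to 0.33). That value came from replicate 1, whose arrays differed by -1.33, while replicates 2 and 3 differed by 0.16 and 0.086. Without siCTRL replicate 1 it was -0.068. SCARNA21, known as ACA68 and a guide for U12, stood at 7.50, 7.01 and 5.47 on siATF4 arrays and at 6.87, 6.52 and 5.68 on siCTRL arrays, a difference of 0.30 (SE 0.55, 95% interval -1.01 to 1.62). Its siATF4 arrays held both the highest and the lowest of the 6 values.

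SCARNA22, known as ACA11 and encoded within NSD2, a gene activated by a translocation in myeloma, stood at 8.77, 8.23 and 8.64 on siATF4 arrays and at 8.04, 8.45 and 8.98 on siCTRL arrays. The groups overlapped and the difference was 0.056 (SE 0.26, 95% interval -0.57 to 0.68). SCARNA8 (U92), a guide for U2, stood at 6.09, 6.32 and 5.85 on siATF4 arrays and at 6.53, 6.15 and 5.92 on siCTRL arrays, a difference of -0.12 (SE 0.19). SCARNA16 (ACA47) stood at 6.65, 6.83 and 6.84 on siATF4 arrays and at 6.98, 6.79 and 6.55 on siCTRL arrays, a difference of -0.0011 (SE 0.14, 95% interval -0.33 to 0.33). SCARNA16 was thus among the members that these arrays bounded most closely.

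SCARNA20 (ACA66), another guide for U12, stood at 4.46, 4.43 and 3.97 on siATF4 arrays and at 4.65, 3.66 and 4.02 on siCTRL arrays, a difference of 0.18 (SE 0.27). SCARNA15 (ACA45), which can be cut into a smaller RNA that acts like a microRNA, stood at 4.56, 4.50 and 3.66 on siATF4 arrays and at 4.17, 3.76 and 4.62 on siCTRL arrays, a difference of 0.055 (SE 0.31). SCARNA18 (U109) stood at 5.43, 4.72 and 3.85 on siATF4 arrays and at 4.43, 4.46 and 4.59 on siCTRL arrays, a difference of 0.17 (SE 0.37). In these 3 RNAs the siATF4 and siCTRL arrays were interleaved or 1 group spanned the other. The remaining H/ACA members SCARNA1, SCARNA3, SCARNA11 and SCARNA23 had differences of -0.27, -0.15, 0.12 and -0.22, each with overlap. SCARNA1, SCARNA3, SCARNA15, SCARNA18 and SCARNA20 lay under the median feature on 1 or 2 arrays, and 17 members lay above it on all 6. Of those above it, SCARNA11 was close to it, at a mean of 4.39 with siATF4 and 4.27 with siCTRL.

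SCARNA27 had the smallest range over the 6 arrays, 0.25, while by SE SCARNA14 was slightly lower. It stood at 5.75, 5.59 and 5.75 on siATF4 arrays and at 5.68, 5.51 and 5.73 on siCTRL arrays, a difference of 0.060 (SE 0.11, 95% interval -0.21 to 0.33). It was higher with siATF4 in every replicate number, and so was SCARNA11, by 0.15, 0.12 and 0.092. SCARNA14 was the 1 member lower in every number, by -0.24, -0.16 and -0.17. These 3 of 23 members (13%) compare with the 23.6% of all genes that kept 1 direction in every number, made up of 14.4% higher and 9.2% lower.

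The class means overlapped between siATF4 and siCTRL arrays. The C/D class averaged 7.91 ± 0.21 with siATF4 and 7.91 ± 0.074 with siCTRL (SD, n = 3 each). The mixed class averaged 7.47 ± 0.42 with siATF4 and 7.63 ± 0.099 with siCTRL, and the H/ACA class 5.24 ± 0.23 with siATF4 and 5.27 ± 0.20 with siCTRL. The differences of the C/D, mixed and H/ACA means were -0.00065, -0.16 and -0.032. By replicate number 1, 2 and 3 the mixed class differed by -0.43, 0.44 and -0.49, and the H/ACA class by -0.22, 0.32 and -0.21. The C/D class differed by 0.046, 0.17 and -0.21. All 3 classes were thus higher with siATF4 at replicate 2 and lower at replicate 3. Over all 23 members the numbers differed by -0.18, 0.30 and -0.25, while the mean over all named genes differed by -0.010, 0.023 and 0.020.

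**Figure D3:**
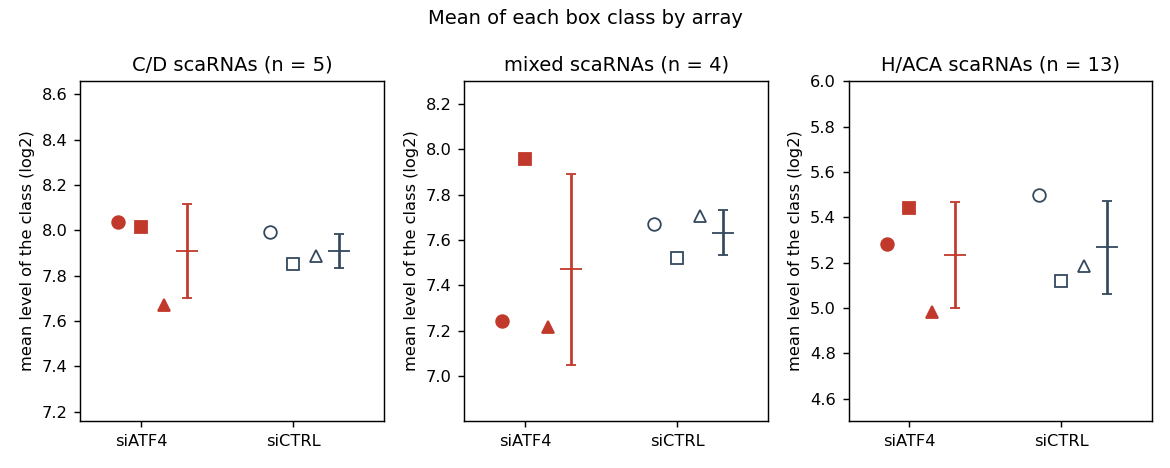
Mean log2 level of the C/D, mixed and H/ACA members on each array, siATF4 in filled red and siCTRL in open dark symbols (circle, square and triangle for replicates 1, 2 and 3). The bar beside each group is its mean with the SD over 3 arrays, and each panel spans 1.5 log2. The groups overlap in each class, and siATF4 replicate 2 lies above siCTRL replicate 2 in all of them.

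The members were also compared between replicate numbers, which both groups share. For 20 of 23 members (87%) the replicate numbers, averaged over both groups, spanned more than the difference between siATF4 and siCTRL, close to the 85.8% of all genes. A span over 3 means tends to exceed a difference of 2 means, so these shares say nothing particular about the scaRNAs. The median span was 0.42 for the members and 0.25 for all genes. For 11 of 23 members (47.8%) both arrays of 1 number lay apart from the other 4 arrays, close to the 49.3% of all genes. Number 3 stood apart for 6 of them (26.1%, beside 29.2% of all genes).

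SCARNA17 and SCARNA21 showed the widest spans over numbers. SCARNA17 averaged 7.60, 7.02 and 6.04 over the pairs of arrays numbered 1, 2 and 3, and SCARNA21 averaged 7.19, 6.77 and 5.58. For both, the arrays of number 3 were the lowest of their group whichever siRNA was used. In a moderated F test of the number term in limma, added after seeing the data, the adjusted p was 0.068 for SCARNA17 and 0.067 for SCARNA21. No member passed that test, where 0.894% of all genes did. At an unadjusted p below 0.05 there were 5 members (21.7%), beside 16.5% of all genes.

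SCARNA5, SCARNA8 and SCARNA9 likewise had both arrays of number 3 below the other 4, and SCARNA9L had them above. Number 3 was thus below for 5 of 23 members and above for 1, beside 12.5% and 16.7% of all genes. That lean was not tested. SCARNA17 and SCARNA20 had both arrays of number 1 at the top. These are 8.7% of members, beside 15.9% of all genes with number 1 apart either way. Number 2 stood apart in SCARNA7 and SCARNA11, where it was high, and in SCARNA2 and SCARNA27, where it was low. That is 17.4% of members, the same share as of all genes. Of the 7 measured myeloid markers, LYZ, CSF1R, FLT3, CD14 and MEIS1 were lowest at number 3 in both groups, MPO was highest there in both, and SPI1 was neither. Their mean log2 level was 7.43, 7.50 and 6.91 on siATF4 arrays and 7.78, 7.52 and 6.88 on siCTRL arrays. LYZ stood at 10.7, 10.9 and 8.33 on siATF4 arrays and at 10.9, 10.4 and 8.51 on siCTRL arrays. FLT3 stood at 9.27, 9.58 and 8.19 on siATF4 arrays and at 9.67, 9.46 and 8.27 on siCTRL arrays. MPO, the granule enzyme myeloperoxidase, ran the other way, at 5.58, 8.45 and 10.4 on siATF4 arrays and at 9.11, 9.53 and 10.2 on siCTRL arrays, with a group difference of -1.45 (SE 1.12, adjusted p = 1.00 in limma). The part of these differences in the scaRNA values was not tested. In such bulk RNA a smaller share of cells with a transcript and less of it per cell cannot be told apart.

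**Figure D4:**
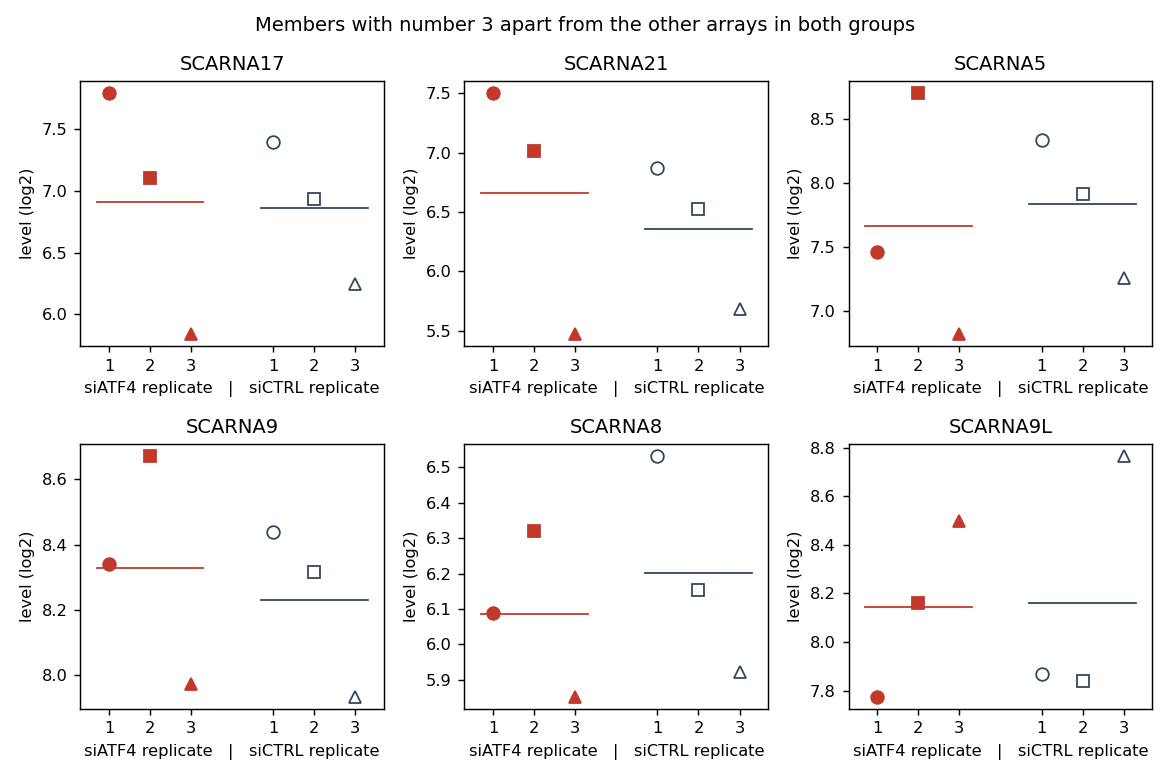
Log2 levels of the 6 members whose number 3 arrays lie apart from the other 4, by replicate, with siATF4 (filled red) left of siCTRL (open dark) in each panel and a line at each group's mean. The y axes differ between panels. Number 3 is lowest in both groups for 5 RNAs and highest for SCARNA9L.

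Most scaRNAs are processed from introns, so each member was set beside the gene that spans it in the RefSeq table, whichever strand that gene is on. A gene spanned 22 of 23 members, the exception being SCARNA2. Of the genes that span members, 12 had a named feature on the array, and these held 13 members. None of the 12 reached an unadjusted p below 0.05 in limma, and their median difference was 0.065, with 8 higher and 4 lower with siATF4.

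The differences of RNAs and spanning genes lay on the same side of 0 for 6 of 13 pairs and on opposite sides for 7. Some of these signs rest on differences near 0, such as 0.00055 (SE 0.30) for CHD4, which spans SCARNA11, and -0.0011 for SCARNA16. FSD2, which spans SCARNA15 and is counted among the opposite pairs, averaged 3.87 with siATF4 and 3.93 with siCTRL. These means are near the median feature, so the signal of FSD2 over background is uncertain. ATG16L1, an autophagy gene, spans both SCARNA5 and SCARNA6. It stood at 6.23, 5.75 and 5.87 on siATF4 arrays and at 6.08, 5.58 and 5.71 on siCTRL arrays, a difference of 0.16 (SE 0.19), where both RNAs had differences below 0. At replicate 2 the gene was at its lowest in both groups. There both RNAs were at their highest on siATF4 arrays, while on siCTRL arrays SCARNA6 was at its lowest and SCARNA5 in the middle. KPNA4, an importin gene that spans SCARNA7, stood at 8.32, 8.62 and 8.96 on siATF4 arrays and at 8.23, 8.02 and 8.64 on siCTRL arrays. Its difference of 0.33 (SE 0.22) was the highest of the spanning genes, beside -0.17 for SCARNA7.

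TIPIN, a replication fork gene that spans SCARNA14, differed by -0.26 (SE 0.19), the lowest of these genes and on the same side of 0 as its RNA. CHD3, a chromatin remodeller that spans SCARNA21, stood at 8.64, 7.90 and 7.81 on siATF4 arrays and at 8.11, 7.89 and 7.94 on siCTRL arrays. CHD3 was nearly level between numbers 2 and 3, where SCARNA21 was lower at number 3 in both groups. NSD2, a histone methyltransferase that spans SCARNA22, stood at 6.15, 5.93 and 7.16 on siATF4 arrays and at 6.18, 6.25 and 7.24 on siCTRL arrays. It was highest at number 3 in both groups, whereas SCARNA22 was highest at number 3 in the siCTRL group alone. SNHG20, a non-coding host, differed by 0.14 (SE 0.20) beside -0.0011 for SCARNA16.

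**Figure D5:**
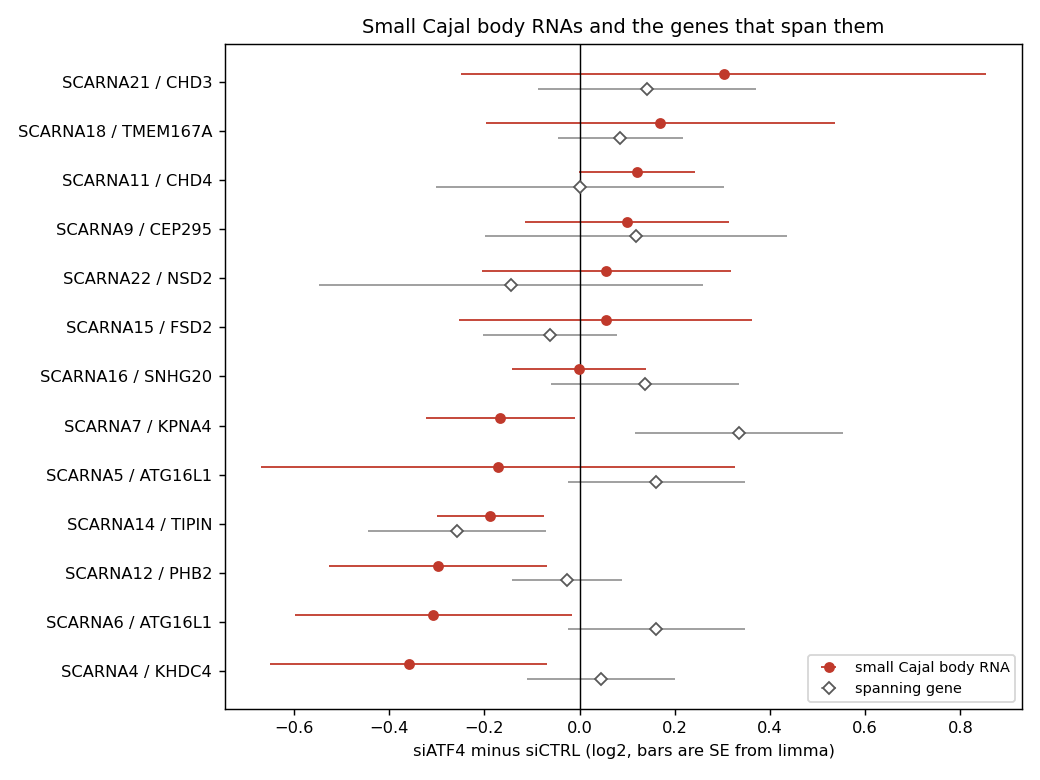
Difference, siATF4 minus siCTRL in log2 with its SE from limma, of the 13 members with a measured spanning gene (red circles) and of that gene (open diamonds), each pair on 1 row named member / gene. ATG16L1 appears on 2 rows. The 2 symbols lie on opposite sides of 0 in 7 rows.

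The mRNAs for the proteins that scaRNAs work with did not pass the test either. No protein was measured, and values given under a protein's name are for its mRNA. Of the C/D core proteins 3 of 4 fixed were named, and the methyltransferase fibrillarin (FBL) stood at 9.22, 9.64 and 9.57 on siATF4 arrays and at 9.78, 9.68 and 9.62 on siCTRL arrays. Its difference was -0.22 (SE 0.14), while NOP58 was at -0.0082 and SNU13 at -0.022. Of the H/ACA core proteins 3 of 4 were named, with NHP2 at -0.14, NOP10 at 0.052 and GAR1 at 0.0068. The 10 named assembly factors had a median of 0.025, with 7 higher and 3 lower. The lowest was NOLC1, a nucleolar phosphoprotein that binds both kinds of particle, at -0.23 (SE 0.18). The next in size was NAF1, at -0.17 (SE 0.15).

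Cajal body and SMN complex genes held the largest differences of these lists. Of 12 measured, 8 were higher and 4 lower with siATF4, 0 were called, and the median difference was 0.062. The scaffold coilin (COIL) stood at 7.22, 6.87 and 7.19 on siATF4 arrays and at 6.78, 6.74 and 7.05 on siCTRL arrays, a difference of 0.24 (SE 0.15) with overlap. GEMIN2, a partner of SMN, stood at 5.22, 5.20 and 5.18 on siATF4 arrays and at 4.68, 4.72 and 5.03 on siCTRL arrays. Its groups did not overlap, with siATF4 above, at a difference of 0.39 (SE 0.12, adjusted p = 1.00 in limma, exact permutation p = 0.1). GEMIN5, which recognises small nuclear RNAs for that complex, stood at 7.89, 7.81 and 7.78 on siATF4 arrays and at 7.41, 7.53 and 7.58 on siCTRL arrays, again with no overlap. Its difference was 0.32 (SE 0.10, adjusted p = 1.00 in limma, exact permutation p = 0.1). Thus 2 of 12 genes of the list lay higher without overlap, beside 3.3% of all genes, and neither passed the adjustment.

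Genes for intron debranching and trimming of RNA ends, which free scaRNAs from their hosts, were all measured. Of 16, 12 were higher and 4 lower, with a median of 0.044, and 0 were called. The largest in size were -0.18 (SE 0.18) for the exosome subunit EXOSC9 and 0.17 (SE 0.10) for the deadenylase PARN, which trims H/ACA RNAs. For the SSU processome, the particle that uses snoRNAs in ribosome assembly, 15 genes were measured. Of these, 11 were higher and 4 lower, with a median of 0.068. HEATR1 stood at 8.91, 9.05 and 8.93 on siATF4 arrays and at 9.28, 9.33 and 9.18 on siCTRL arrays, lower on all siATF4 arrays, by -0.30 (SE 0.10, adjusted p = 1.00 in limma, exact permutation p = 0.1). WDR43 was the 1 other gene of the list without overlap and lay higher with siATF4, by 0.18 (SE 0.12), though its nearest arrays both round to 8.30. Thus 2 of 15 genes had no overlap, 1 in each direction, beside 5.89% of all genes. PDCD11, next to HEATR1 in size of difference, was at -0.19 (SE 0.20) with overlap. Of 10 non-coding host genes 5 were higher and 5 lower, and the largest difference was 0.22 (SE 0.12) for ZFAS1. In the list of RNA polymerase I and nucleolus genes 3 were measured, with 2 higher, 1 lower and 0 called. Its largest differences in size were 0.29 (SE 0.19) for RRN3 and 0.17 (SE 0.18) for MYC.

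Of the other named small RNAs none was called, with an adjusted p of 1.00 for each. TERC, the telomerase RNA, which has an H/ACA domain and is held in Cajal bodies, stood at 6.96, 6.72 and 6.76 on siATF4 arrays and at 6.56, 6.46 and 7.01 on siCTRL arrays, a difference of 0.14 (SE 0.17) with overlap. RMRP, the RNA of RNase MRP, differed by -0.11 (SE 0.14) and RPPH1, the RNA of RNase P, by -0.086 (SE 0.13). The vault RNAs VTRNA1-1, VTRNA1-2, VTRNA1-3 and VTRNA2-1 differed by -0.080, 0.058, -0.20 and 0.23, with SEs of 0.25, 0.26, 0.36 and 0.23. VTRNA1-2 averaged 3.49 with siATF4 and 3.43 with siCTRL, and VTRNA2-1 averaged 3.20 and 2.97. These means lie under the median feature, so the signal of both RNAs over background is uncertain.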

How the data were processed

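The 6 samples gave 100 ng of total RNA each, labelled with biotin (whole-transcript kit) per the labels' protocols. The authors deposited log2 values for 53617 features. They used Partek, per the submitters' processing notes. Its version, the normalization and the log base are not given in the sources used here, and log2 was read from the values. The annotation table named 16098 features, 0 with several symbols, and left 37519 unnamed. All 14884 gene identifiers matched the GRCh38.p14 gene table, which changed 0 symbols. The brightest probe set stood for a gene, and each member had 1 probe set.

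Groups were compared in R 4.3.3 by limma 3.58.1: lmFit and eBayes over all genes with a term for group alone, p-values adjusted by Benjamini-Hochberg, threshold 0.05. SE is the moderated standard error. No filter on dim genes was applied. The test was tested on simulated data. These held independent noise and planted changes larger than any member's difference, so changes of the members' size were not checked. Deviations from the group means correlated over all genes at 0.20, 0.40 and 0.62 between arrays of number 1, 2 and 3, each over 0.1, so the number was also fitted as a block. siATF4 replicate 2 correlated with siCTRL replicate 1 at 0.48, so the pairing rests on the data and is not exclusive. Over the 23 members alone the correlations at numbers 1, 2 and 3 were 0.055, 0.011 and 0.62. For siATF4 replicate 2 with siCTRL replicate 1 the members gave 0.57. The members thus showed the pairing at number 3 alone.

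Strand of spanning genes was not read, and where several span a member a measured one was taken, then the shortest. The number of arrays limits the precision. Members and lists were chosen with earlier results of these data known. Of 19 lists, 5 lists of SNORD and SNORA genes had 0 measured members. The genes to name were ATF4, the extreme and brightest members of each class, members with an unadjusted p under 0.01 (none), fixed members, the 2 largest differences of each protein list and spanning genes. Some spanning genes of named members appear in the figure of spanning genes alone. Other members, SCARNA14 among them, were chosen for naming with values in view. WDR43 was outside these rules and was named for its lack of overlap. The lists of T and B cell markers had 2 and 1 measured members.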

Additional observations from a re-analysis of the deposited data

How the results depend on the processing

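In the fit of all arrays and under each alternative run, 0 genes and 0 scaRNAs were called: the replicate block, quantile normalization, array weights, a robust prior with a mean-variance trend, equal array medians, the mean of all probe sets, the dimmest 33% of genes dropped, each array left out, both arrays of 1 number left out (added after seeing the data) and every feature tested. The mean difference over the members, -0.044 with all arrays, ranged with 1 array left out from -0.15 without siATF4 replicate 2 to 0.075 without siATF4 replicate 3. Without both arrays of number 1, 2 and 3 it was 0.026, -0.22 and 0.058. It was thus on either side of 0, always within 1 SD (0.23 among siATF4 arrays) of the value with all arrays. The count of members without overlap, 1 with all arrays, was 0 with quantile normalization and 0 with equal array medians. It was also 0 with the dim genes dropped, which removes SCARNA14. The run over the 22 members whose mean over the 6 arrays is above the median feature (added after seeing the data) leaves out SCARNA14 too. Its count was 0, and both of these last values were fixed in advance. With fewer arrays the count of members without overlap was 1 to 6 of 23 with each array left out, where 12.7% to 18% of all genes had no overlap. Without both arrays of number 1, 2 and 3 it was 2, 8 and 5 (8.7%, 34.8% and 21.7%), beside 23.9%, 23.9% and 30.1% of all genes. The replicate block cannot change that count, which uses the levels alone. SCARNA2 turned to -0.0035 with quantile normalization and SCARNA16 to 0.013 with equal medians, and the cause was not tested.

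With each array left out in turn, 15 of 23 members changed sign and 8 did not. Each of those 8 moved by over 1.5 times: SCARNA1 ranged from -0.53 to -0.041, SCARNA4 from -0.54 to -0.068, SCARNA6 from -0.64 to -0.040, SCARNA7 from -0.33 to -0.056, SCARNA10 from 0.057 to 0.28, SCARNA11 from 0.053 to 0.19, SCARNA12 from -0.43 to -0.062 and SCARNA14 from -0.23 to -0.12. Of the 15, SCARNA2 ranged from -0.085 to 0.20, SCARNA3 from -0.37 to 0.17, SCARNA5 from -0.69 to 0.25, SCARNA8 from -0.26 to 0.049, SCARNA9 from -0.072 to 0.28 and SCARNA9L from -0.19 to 0.29. SCARNA15 ranged from -0.16 to 0.35, SCARNA16 from -0.11 to 0.10, SCARNA17 from -0.39 to 0.59, SCARNA18 from -0.21 to 0.58 and SCARNA20 from -0.048 to 0.45. SCARNA21 ranged from -0.12 to 0.90, SCARNA22 from -0.17 to 0.30, SCARNA23 from -0.48 to 0.12 and SCARNA27 from -0.0058 to 0.11. Class means of SNORD and SNORA genes were not run, since no feature of those names was in the annotation used here.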
